A study of Mus musculus with 12 samples.

Results

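The BH3-only genes are 8 proapoptotic members of the BCL2 family, Bmf, Bcl2l11, Bbc3, Pmaip1, Bid, Bad, Bik and Hrk, and they are described here in B cells purified from Peyer's patches (PP) of mice after stroke. They were found by gene symbol, which gave 8 of the 36175 genes in the table, and in 6 of the 8 no mouse was below 1. The family was selected on the difference between sham controls and stroke mice in these same values, which was already known, so every sham versus stroke value of a member is given as a description and not as a test. B cells were isolated 18 h after the operation from 6 mice with sham surgery and 6 with stroke, and each mouse gave its own library. All were wild-type male C57BL/6JHsd mice aged 10 to 12 weeks, without a transgene or gene deletion, and all received buprenorphine and carprofen. Stroke was a filament occlusion of the middle cerebral artery for 1 h followed by reperfusion. Sham surgery left the cerebral artery open, with the filament brought no further than the common carotid artery. The comparison addresses how the transcripts of the B cells that remain in PP differ after stroke.

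BH3-only proteins start the mitochondrial pathway of apoptosis. They carry a single BCL2 homology domain, the BH3 helix, with which they occupy the groove of the survival proteins BCL2, BCL-XL, MCL1 and A1, and some of them also activate the pore-forming effectors BAX and BAK. Lymphocytes depend on this balance, and loss of BIM, the protein of Bcl2l11, leads to an accumulation of B cells.

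A coding sequence for the BH3 core was found in every member searched, and no sequence of Pmaip1 was searched. The core is shown for 5 of the 6 members that passed the low-value filter, all but Pmaip1. The core was searched as a leucine codon, any 3 codons, a codon for glycine, alanine or serine, and an aspartate codon. These 6 codons, 18 bases, are in capitals, with 21 bases of coding sequence on each side in lower case. The stretches were read 5′ to 3′ on the coding strand of GENCODE M21 transcripts, on GRCm38. They lie in exon 4 of Bmf (chr2:118545088-118545147, minus strand), exon 3 of Bcl2l11 (chr2:128147129-128147188, plus strand), exon 3 of Bbc3 (chr7:16313752-16313811, plus strand), exon 4 of Bid (chr6:120897277-120897336, minus strand) and exon 3 of Bad (chr19:6950771-6950830, plus strand).
Bmf: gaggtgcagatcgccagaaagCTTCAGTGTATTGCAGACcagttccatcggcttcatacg
Bcl2l11: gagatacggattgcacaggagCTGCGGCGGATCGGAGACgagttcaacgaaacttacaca
Bbc3: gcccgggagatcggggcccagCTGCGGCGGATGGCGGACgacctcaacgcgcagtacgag
Bid: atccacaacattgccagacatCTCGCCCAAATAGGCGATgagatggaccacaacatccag
Bad: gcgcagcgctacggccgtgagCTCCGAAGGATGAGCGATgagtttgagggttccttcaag
Each of these coding sequences held exactly 1 such core. Of the 18 core bases of Bcl2l11, 15 were identical in Bbc3, 12 in Bmf, 11 in Bad and 9 in Bid. The core of Hrk shared 12 bases with that of Bcl2l11, and the core of Bik shared 11. The stretch of Bik, core and flanks together, is split between exons 2 and 3.

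The values are a normalized transcripts-per-million (TPM) signal, which is corrected for transcript length, so levels can be compared between genes. The column totals ranged from 559570 in sham control 6 to 1404340 in sham control 1, and the read depth is unknown. The summed level of 4 B cell markers (Cd79a, Cd79b, Ms4a1 and Pax5) was between 799 and 1722 in every library, against 30.7 to 127 for 6 T cell markers and 0.771 to 2.97 for 5 neutrophil markers. Intestinal epithelial markers (7 genes) summed to between 34.0 and 1563 in sham controls and between 30.9 and 820 in stroke mice, and the 4 of them that could be tested all had a lower mean log2 value in stroke mice. Their part in the results was not tested. Stroke mouse 5 stood apart from the other libraries in markers and mitochondrial share. It had the lowest sum of B cell markers, a sum of 271 for 3 naive follicular B cell markers (Fcer2a, Ccr7 and Ighd) against 627 to 979 in the other mice, and the highest mitochondrial share of the total, 7.49%. The members' values are therefore also given without stroke mouse 5. It was not the only unusual library. Stroke mouse 6 had 30060 genes above 0, against at most 23947 in the others. In sham control 6, the top 10 genes held 14.7% of the total, against 27.2% or more in the others. All 3 naive follicular markers had a negative log2 difference, and Fcer2a, the low-affinity IgE receptor, was the only tested marker of any list called at an unadjusted p under 0.05. Its level was 277 ± 42.1 in sham controls and 187 ± 70.4 in stroke mice (SD, n = 6 each), a log2 difference of -0.72 (SE 0.33, unadjusted p = 0.0498, adjusted p = 0.791 in limma), or -0.36 without stroke mouse 5. The part of these markers in the members' differences was not tested. Whether a transcript is lower because fewer cells of a type were present or because each cell held less of it cannot be told apart in bulk samples.

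Ordered by the median level over the 12 mice, Bid came first with 34.0, followed by Bcl2l11 with 28.8, Bmf with 17.4, Bad with 15.8, Pmaip1 with 9.27, Bbc3 with 5.18, Bik with 0.862 and Hrk with 0.0580. This order pools both groups. Neighbours in it were compared by an exact two-sided sign-flip test of their log2 ratio within each mouse, adjusted over the 7 pairs. Bid and Bcl2l11 could not be separated, with Bid higher in 9 of 12 mice (adjusted p = 0.566, exact test). Bmf and Bad could not be separated either, with Bmf higher in 6 of 12 mice (adjusted p = 0.566, exact test). Their order differed by group, since Bmf was above Bad in 1 of 6 sham controls (medians 12.0 and 16.6) and in 5 of 6 stroke mice (medians 20.4 and 15.8). The medians of the other neighbours had the same order in both groups. Bcl2l11 was above Bmf in all 12 mice, on average by 0.77 ± 0.32 on the log2 scale (SD, n = 12, adjusted p = 0.000854, exact test). Bad was above Pmaip1 in 11 of 12 mice (adjusted p = 0.00205, exact test). Pmaip1 was above Bbc3, Bbc3 above Bik and Bik above Hrk in all 12 mice, each at an adjusted p of 0.000854 in the exact test, which comes from the smallest p that 12 mice allow, 0.000488. Without stroke mouse 5, Bid was higher than Bcl2l11 by 0.37 on the log2 scale in 9 of 11 mice (adjusted p = 0.0171, exact test), and Bmf and Bad still could not be separated (adjusted p = 0.869, exact test).

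In stroke mice, the values of Bmf, Bbc3 and Bcl2l11 were higher than in sham controls, by log2 differences of 1.13, 0.99 and 0.75, whereas those of Pmaip1, Bad and Bid differed by 0.25, 0.15 and -0.04. Bmf encodes a sensor that is held on the myosin V motor through a dynein light chain, Bbc3 encodes PUMA, a classic target of p53 that binds all survival proteins, and Bcl2l11 encodes BIM, which is bound to microtubules in healthy cells. All differences are on the scale of log2(value + 0.5), which understates the change of low genes, and come with their standard error (SE) from limma fitted to the 12590 genes with at least 1 in every mouse.

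Bmf (chr2:118528757-118549687, minus strand) ranged from 7.63 to 17.5 in sham controls with a median of 12.0, and from 17.3 to 77.5 in stroke mice with a median of 20.4. The highest value, in stroke mouse 5, was far above the other stroke mice, and 5 of the 6 stroke mice lay above the highest sham control, so the groups overlapped in 1 stroke mouse. The means were 12.0 ± 3.84 in sham controls and 30.2 ± 23.3 in stroke mice (SD, n = 6 each). The log2 difference of 1.13 had an SE of 0.33 and a 95% interval of 0.41 to 1.85. Without stroke mouse 5, the stroke mean was 20.8 ± 3.54 (SD, n = 5), which was 1.74 times the sham mean, and the log2 difference was 0.82 with an SE of 0.21.

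Bbc3 (chr7:16308393-16318205, plus strand) ranged from 1.93 to 5.48 in sham controls with a median of 3.01, and from 5.01 to 9.19 in stroke mice with a median of 6.26. Only sham control 3 reached into the range of the stroke mice, and 5 of the 6 sham controls lay below the lowest stroke mouse. The means were 3.20 ± 1.25 and 6.69 ± 1.63 (SD, n = 6 each), a ratio of 2.09. Of the 3 genes, Bbc3 depended least on stroke mouse 5. Its log2 difference was 0.99 with an SE of 0.21 and a 95% interval of 0.53 to 1.44, and 0.90 with an SE of 0.21 without that mouse.

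Bcl2l11 (chr2:128126038-128162547, plus strand) ranged from 16.4 to 33.9 in sham controls with a median of 22.8, and from 27.4 to 104 in stroke mice with a median of 31.6. Here the groups overlapped more, since sham control 1 lay above 4 of the stroke mice and only stroke mice 3 and 5 were above all sham controls. The means were 23.4 ± 5.96 and 44.1 ± 29.8 (SD, n = 6 each). The log2 difference of 0.75 (SE 0.29, 95% interval 0.12 to 1.38) was 0.47 with an SE of 0.17 without stroke mouse 5.

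Pmaip1 encodes NOXA, which binds mainly MCL1 and A1. It ranged from 4.68 to 13.5 in sham controls with a median of 8.99, and from 7.54 to 17.98 in stroke mice with a median of 9.61. Its groups overlapped in all but 1 stroke mouse, and the log2 difference was 0.25 with an SE of 0.26 and a 95% interval of -0.31 to 0.81, or 0.19 without stroke mouse 5.

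Bid, the substrate through which caspase-8 connects death receptors to mitochondria, had nearly the same mean in both groups, 34.0 ± 2.66 in sham controls and 33.8 ± 7.22 in stroke mice (SD, n = 6 each). The stroke mice spread to both sides of the sham controls, with 24.0 in stroke mouse 5 and 26.3 in stroke mouse 1 below all of them and 3 stroke mice above all of them. The log2 difference of -0.04 (SE 0.15, 95% interval -0.35 to 0.28) was 0.06 without stroke mouse 5. It was 0.09 with all mice scaled to the same total, where the median over all genes was 0.13. Bad, which is kept inactive by phosphorylation and 14-3-3 proteins, ranged from 7.71 to 22.1 in sham controls and from 10.4 to 22.9 in stroke mice, and its log2 difference was 0.15 with an SE of 0.28 and a 95% interval of -0.45 to 0.75, or 0.24 without stroke mouse 5.

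Bik and Hrk were below the low-value filter. Bik, an endoplasmic reticulum BH3-only protein, was at 0.851 ± 0.502 in sham controls and 0.853 ± 0.361 in stroke mice (SD, n = 6 each) and reached 1 in 4 of the 12 mice. Hrk, best known from neurons, was listed at 0 in 2 sham controls and was at most 0.170 in any mouse. With no filter on low values, the log2 differences were 0.040 for Bik and 0.11 for Hrk.

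**Figure D1:**
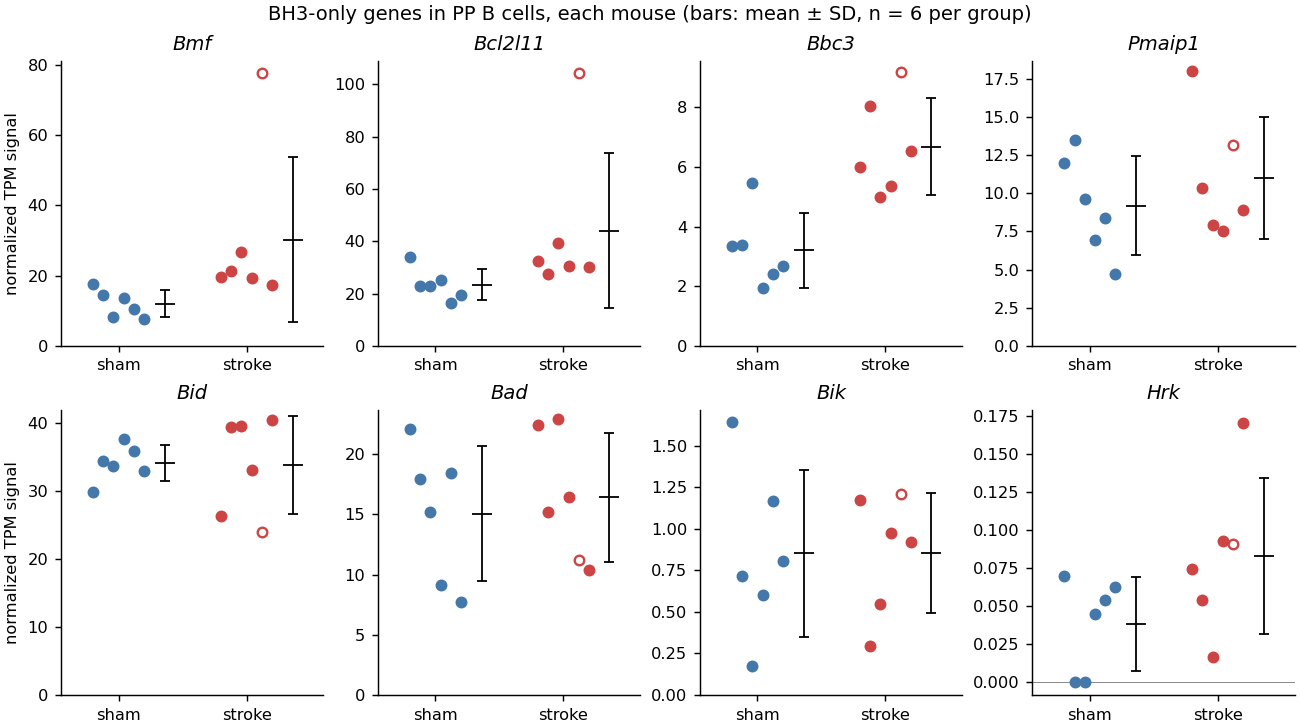
Normalized TPM signal of the 8 BH3-only genes (vertical axes, linear, each gene on its own scale) in each of 6 sham controls and 6 stroke mice, with the mean ± SD beside the points and stroke mouse 5 as an open circle. Bmf and Bcl2l11 are highest in stroke mouse 5 at 77.5 and 104, and 5 of 6 stroke mice lie above every sham control for Bmf.

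At an unadjusted p under 0.05 in limma, 557 of the 12590 genes tested were called higher in stroke mice, 4.42% of them, and 213 were called lower, 1.69% of them. This split depended on 1 library and on the scaling, with 937 higher and 1158 lower calls without sham control 6 and 407 and 316 with median-of-ratios scaling. Of the 6 members tested, 3 (Bmf, Bbc3 and Bcl2l11) were among the higher calls and none among the lower ones. Since the contrast was known when the family was chosen, nothing is read from this count. No gene had an adjusted p under 0.05 (0 of 12590, 0%), and the adjusted p of the members ranged from 0.5004 for Bbc3 to 0.963 for Bid in limma. In 44 genes, 0.349% of those tested, every stroke mouse was above every sham control, and none of the members was among them. Without sham control 5, Bcl2l11 left the calls (unadjusted p = 0.0526, limma) and 2 members remained.

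The partners and regulators of the BH3-only proteins were counted in 5 lists with 47 genes, 44 of which passed the filter. None of the 44 was called in either direction at an unadjusted p under 0.05 in limma, and 30 of the 44 had a negative log2 difference, as had 6124 of all 12590 genes tested. Without stroke mouse 5, 23 of the 44 and 5827 of the 12590 had one, the median over the 44 was -0.01, and again none of the 44 was called. The median log2 difference was -0.09 over these genes, 0.50 over the 6 members tested and 0.01 over all genes tested. The lists had medians of -0.15 for 7 survival genes, -0.01 for 2 effectors and -0.11 for 16 tethers and modifying kinases. They were -0.03 for 10 transcription factors and -0.16 for 9 genes that act after the mitochondria. Without stroke mouse 5, the median was 0.02 for the survival genes and -0.13 for the genes after the mitochondria. It lay between 0.011 and 0.046 for the transcription factors and between -0.066 and -0.015 for the tethers and kinases. Both effectors were then positive, Bax at 0.11 and Bak1 at 0.047.

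Among the survival genes, Mcl1, which encodes a short-lived survival protein that B cells require, was at 327 ± 88.7 in sham controls and 251 ± 56.1 in stroke mice (SD, n = 6 each), a log2 difference of -0.36 with an SE of 0.22, or -0.23 without stroke mouse 5. Its lowest value, 155, was in that mouse. Bcl2 was at 27.5 ± 3.72 and 29.8 ± 2.97 (log2 difference 0.12, SE 0.12), and Bcl2l1, the gene of BCL-XL, at 15.1 ± 4.51 and 12.5 ± 4.49 (log2 difference -0.28, SE 0.24, or -0.15 without stroke mouse 5). The effector Bax was at 42.9 ± 4.63 and 45.3 ± 4.31, and Bak1 at 26.8 ± 11.7 and 23.5 ± 6.75 (SD, n = 6 each).

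The tethers gave a wider spread. Dynll1, the dynein light chain that holds BIM, was at its lowest in stroke mouse 5, at 44.02, and at 101 or more in every other mouse, and its log2 difference was -0.46 with an SE of 0.38, or -0.11 without stroke mouse 5. Dynll2, the light chain that holds BMF, had a log2 difference of -0.20 with an SE of 0.35 (-0.015 without stroke mouse 5), and Casp8, which cleaves BID, one of -0.08 with an SE of 0.10. Of the transcription factors that act on BH3-only genes, Trp53 differed by -0.33 with an SE of 0.32 (-0.023 without stroke mouse 5), Foxo1 by -0.01 with an SE of 0.16, Foxo3 by 0.15 with an SE of 0.13 (0.082 without stroke mouse 5) and Nr3c1, the glucocorticoid receptor, by -0.14 with an SE of 0.14. All these genes had 95% intervals that included 0.

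**Figure D2:**
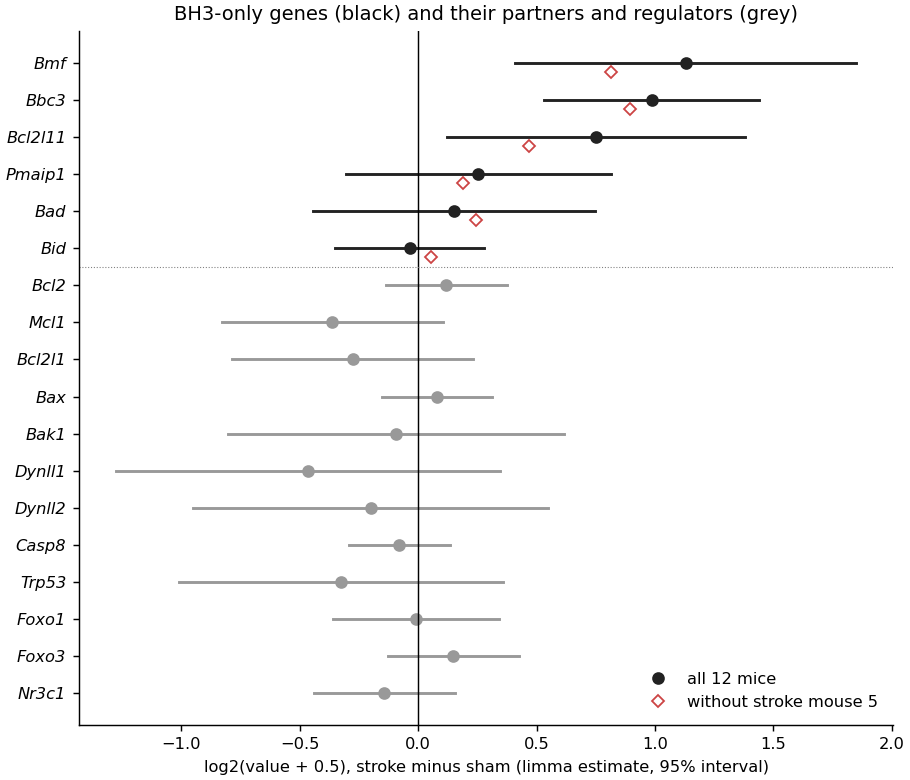
Limma estimates of log2(value + 0.5) in stroke mice minus sham controls (horizontal axis) with 95% intervals for the 6 BH3-only genes that passed the filter (black) and 12 partner and regulator genes (grey), and diamonds for the BH3-only estimates without stroke mouse 5. The intervals of Bmf, Bbc3 and Bcl2l11 lie above 0, and those of the other genes include 0.

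The summed level of the 8 members was between 76.2 and 120 in sham controls and between 113 and 241 in stroke mice, and all stroke mice but numbers 4 and 6 lay above the highest sham control. The mean was 97.8 ± 14.9 in sham controls, 143 ± 48.9 in stroke mice and 124 ± 11.4 without stroke mouse 5. The make-up of the sum also differed. Bid made up 35.6% ± 6.55 of it in sham controls and 25.9% ± 9.17 in stroke mice (SD, n = 6 each), or 29.1% without stroke mouse 5. Bmf made up 12.0% ± 2.41 in sham controls and 19.3% ± 6.44 in stroke mice, or 16.7% without stroke mouse 5. In stroke mouse 5, Bmf and Bcl2l11 gave 32.2% and 43.4% of the sum and Bid gave 9.95%.

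**Figure D3:**
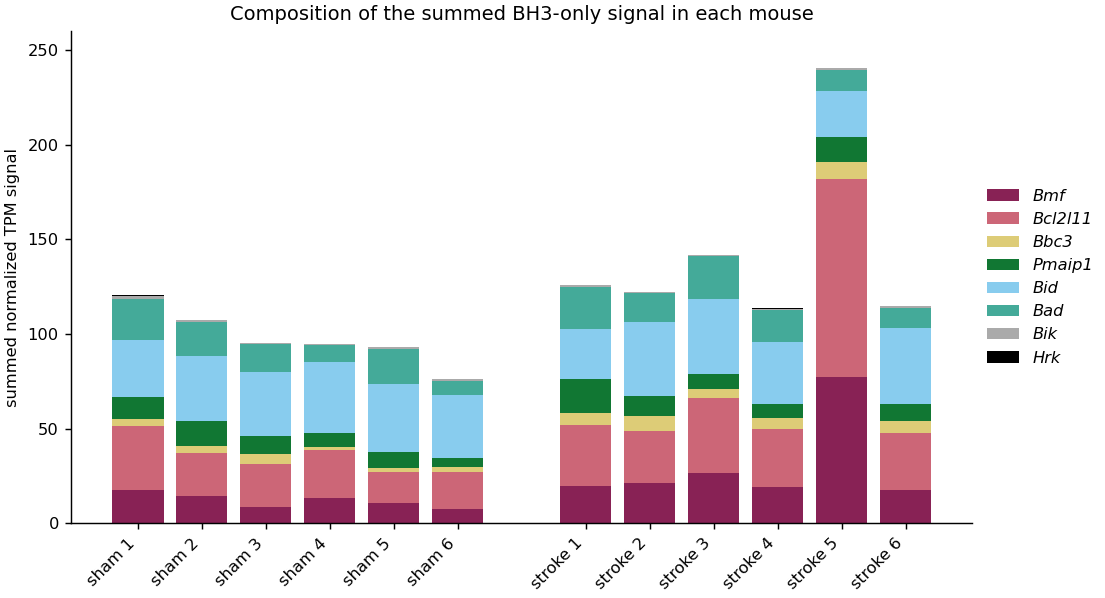
Summed normalized TPM signal of the BH3-only genes (vertical axis from 0) in each mouse, split by gene. The sum is 241 in stroke mouse 5 and at most 142 in the other mice.

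Ratios within a mouse do not depend on how the mice were scaled to each other. The log2 ratio of the 8 summed members to 7 summed survival genes (Bcl2, Bcl2l1, Bcl2l2, Mcl1, Bcl2a1a, Bcl2a1b and Bcl2a1d) was -2.20 ± 0.22 in sham controls and -1.39 ± 0.76 in stroke mice (SD, n = 6 each). Mcl1 was the largest of the 7 in every mouse, at 155 or more against at most 75.1 for any other. The summed ratio therefore leans on Mcl1. On the linear scale, the ratio lay between 0.191 and 0.276 in sham controls and between 0.270 and 0.357 in 5 stroke mice, and it was 1.09 in stroke mouse 5. The difference of 0.81 on the log2 scale was 0.50 without stroke mouse 5. Relative to Mcl1 alone, Bmf was higher by 1.53 and Bbc3 by 1.47 on the log2 scale, or by 1.07 and 1.24 without stroke mouse 5. For both, every stroke mouse was above every sham control, which held for 78 of the 12589 tested genes other than Mcl1, 0.62%, these included. For Bcl2l11 over Mcl1, 5 of the 6 stroke mice were above every sham control. The count was 3 of 6 for Pmaip1 (log2 difference 0.63) and for Bad (0.52), and 0 of 6 for Bid (0.33). Ratios to the other 6 survival genes were computed in the same way. Over Bcl2l1, Bmf and Bbc3 were each above every sham control in 5 of the 6 stroke mice, with log2 differences of 1.451 and 1.396. Over Bcl2, Bmf was above every sham control in 2 of the 6 stroke mice (log2 difference 1.04, or 0.67 without stroke mouse 5) and Bbc3 in 5 of the 6 (0.99, or 0.84). Over Bcl2l2, Bmf and Bbc3 were each above every sham control in 2 stroke mice, and over Bcl2a1a each in 1. Over Bcl2a1b and Bcl2a1d, which are near-identical copies of Bcl2a1a whose reads may be split between them, Bmf was above every sham control in 6 and 5 stroke mice and Bbc3 in 4 and 3. Over Bcl2a1b, every stroke mouse was above every sham control for 12 of the 12589 other tested genes, 0.0953%, Bmf included. The same held for 0.0159% of tested genes over Bcl2, 0.0715% over Bcl2l1, 0.00794% over Bcl2l2, 0.0159% over Bcl2a1d and 0% over Bcl2a1a, with neither Bmf nor Bbc3 among them. Between the members themselves, the log2 ratio of Bmf to Bcl2l11 was -0.995 ± 0.348 in sham controls and -0.596 ± 0.177 in stroke mice (SD, n = 6 each), and 3 of the 6 stroke mice were above every sham control. The log2 ratio of Bcl2l11 to its tether Dynll1 was 1.25 in stroke mouse 5, the only mouse in which it was above 0. The log2 difference of Mcl1 itself was -0.36, or -0.23 without stroke mouse 5, and did not pass the test, these ratios combine both genes, and the contrast that chose the members enters them.

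Within the groups, members were compared by the deviations of log2(value + 0.5) from the group mean over 12 mice, which does not use the contrast. Of 15 pairs among the 6 members tested, Bmf and Bcl2l11 had the highest correlation, with a Pearson r of 0.914 (p = 0.0038, adjusted p = 0.057) and a Spearman rho of 0.657 (p = 0.0226, adjusted p = 0.339), from 100000 permutations within groups. None of the 15 pairs passed an adjusted p of 0.05 by either measure. The relation of Bmf and Bcl2l11 rested in large part on stroke mouse 5. Without it r was 0.683, and without it and sham control 1, the other mouse farthest from the median, r was 0.473. Over the sham controls alone r was 0.686, and over the stroke mice alone it was 0.980. Bbc3, in contrast, had an r of 0.224 with Bmf and 0.360 with Bcl2l11, and without stroke mouse 5 these were -0.25 and 0.00078. Bid went the other way, with an r of -0.661 with Bcl2l11 (p = 0.0334, adjusted p = 0.251, permutation test), which was -0.24 without stroke mouse 5 and 0.029 with all mice scaled to the same total. The points share a library and its scaling.

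**Figure D4:**
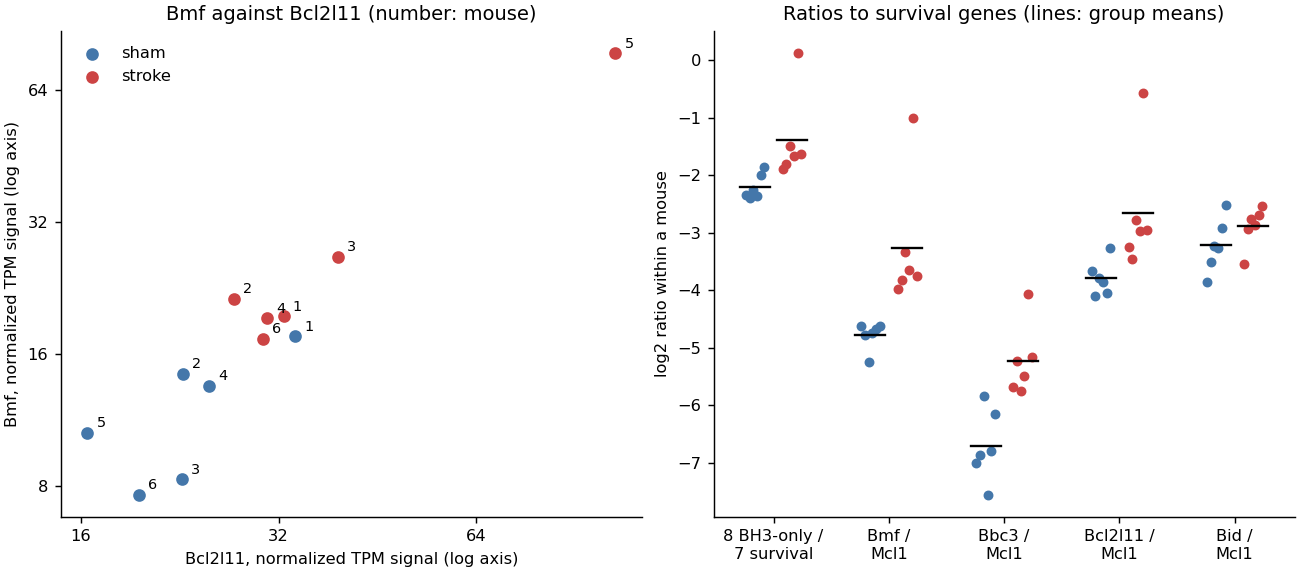
Left, Bmf against Bcl2l11 in each mouse (normalized TPM signal, both axes log scale, numbers name the mouse). Right, log2 ratios within each mouse (vertical axis) of summed BH3-only to summed survival genes and of 4 members to Mcl1, with lines at the group means. Every stroke mouse is above every sham control in the ratios of Bmf and Bbc3 to Mcl1.

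The genes whose within-group deviations were most like those of a member were taken among genes with a mean of at least 5, as a description. For Bmf they were Clcn3 (r = 0.961), Reps1 (0.961), Fyttd1 (0.953), Vars (0.952) and Mtmr1 (0.946), and their r without stroke mouse 5 was between 0.859 and 0.895. For Bcl2l11 they were Rad54l2 (r = 0.965), Zbtb8a (0.955), Cep85l (0.947), Tspan14 (0.944) and Scmh1 (0.934), with values between 0.685 and 0.906 without stroke mouse 5. The r of Bmf exceeded 0.9 with 17 of 10527 genes and that of Bcl2l11 with 31 of 10527, and both lists include the pull of stroke mouse 5. For Bbc3 no gene exceeded 0.9. Its nearest genes were Cpt1a (r = 0.861), the enzyme that admits fatty acids to mitochondria, Ipo13 (0.859), Pmepa1 (0.825), Zfp64 (0.790) and Gpam (0.784). Their r without stroke mouse 5 was between 0.743 and 0.862. The genes named for each member were picked for the highest r in these same mice. Leaving out stroke mouse 5 is therefore not an independent check of them. How high the best r would be by chance among the 10528 genes compared with Bbc3 was not tested.

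RefSeq promoter windows on GRCm38.p6, 250 bases before and 50 bases after the start, were given for 12 starts of 6 members, with none for Pmaip1 and Bik. They were searched on both strands for motifs of factors known to act on BH3-only genes. The FOXO core TGTTTAC was found in 2 of the 12 windows, 1 of Bcl2l11 and 1 of Bbc3, and in 3.65% of all 32851 windows. Its second form TGTTTGC was found in 1 window of Bmf and in 5.07% of all windows. The p53 decamer was found in 1 window of Bmf and in none of the 3 windows of Bbc3, against 8.36% of all windows. Only the FOXO and p53 matches are shown. They lie in Bmf, Bbc3 and Bcl2l11, and so do the E-box match and some of the SP1 matches given below. Each line has 30 bases on the gene's strand, with the match in capitals. In Bcl2l11 (chr2:128125800-128125829, plus strand) the match starts 227 bases before the start and is read on the opposite strand, in Bbc3 (chr7:16310083-16310112, plus strand) it starts 167 bases before a second start, and in Bmf the FOXO form lies 14 bases after a start (chr2:118549654-118549683, minus strand) and the p53 decamer 213 bases before another one (chr2:118544781-118544810, minus strand).
Bcl2l11: aagacactaggGTAAACAcgccggggtggg
Bbc3: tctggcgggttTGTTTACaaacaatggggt
Bmf FOXO form: gcctcatcagcTGTTTGCgggatgcccgga
Bmf p53 decamer: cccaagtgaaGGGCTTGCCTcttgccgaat
The E-box CACGTG was in 1 window of Bbc3 and in 7.15% of all windows. The SP1 motif GGGCGG was in 9 of the 12 windows, of Bad, Bbc3, Bcl2l11, Bid, Bmf and Hrk, and in 35.7% of all windows, and Bbc3 had the most matches, 13 at distinct positions over its 3 windows, of which the later pair overlap. No window of a member held the cAMP response element TGACGTCA, the glucocorticoid receptor motif AGAACA, the AP-1 motif TGANTCA or the E2F motifs TTTCGCGC and TTTGGCGC, which were in 1.79%, 19.0%, 7.81% and 0.813% of all windows. A match is a description of letters and not a bound site.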

How the data were processed

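The authors sequenced RNA of PP B cells purified with a pan B cell kit and CD45 beads. Reads were checked with FastQC, trimmed with Trimmomatic 0.39, quantified with kallisto 0.48.0 and modelled with sleuth 0.30.0 in R 4.1.2, per the labels and methods. The methods name GRCm38 as the build. The deposited values are a gene-level expression signal labelled as normalized TPM. Columns differ in their totals (559570 to 1404340), so the values were treated as a signal, whereas plain TPM had been planned for. No read counts are given, so depth is unknown and counting error cannot be stated. The 12 libraries are separate mice and no columns were identical.

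The signal was transformed as log2(value + 0.5), and 12590 genes that were at 1 or more in every mouse were fitted with limma 3.58.1 in R 4.3.3 (lmFit and eBayes, no block), with Benjamini-Hochberg adjustment over all of them. The limma step was also run on simulated independent values, with shifts larger than the members' differences and no outlying library. That run does not show how well differences of the members' size would be found in these data. Levels were compared by exact sign-flip tests and members by permutation. The genes named are the 8 members, 12 partners and regulators, and the 5 genes nearest to Bmf, Bbc3 and Bcl2l11, and, outside that rule, marker genes and the other survival genes of the sum. Members, lists, markers and motifs were chosen with earlier results of these data known, and some marker genes are not reported here. Coordinates and coding sequences are from GENCODE M21 and promoters from RefSeq, both on GRCm38. Alternatives were other filters, pseudocounts (0.1 and 1) and scalings, a replicate block, sample weights and leaving out mice. The test of the authors by sleuth was not rerun.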

Additional observations from a re-analysis of the deposited data

Results flagged for a closer look

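A single stroke mouse, number 5, was far above the other 5 in 4 quantities, each with a gap to the next mouse that, as a share of the range of the group, exceeded Dixon's critical value for 6 mice. Chance gives such a gap in about 1 in 20 groups, and the rule was applied to every member, the sum and the ratio in both groups. The 4 quantities are not separate observations. Bmf and Bcl2l11 gave 32.2% and 43.4% of the sum in this mouse, and the sum enters the ratio. Bmf was at 77.46 in this mouse and Bcl2l11 at 104.4. The summed BH3-only level was 240.7, and the log2 ratio of summed BH3-only to summed survival genes was 0.1229. In the same mouse, the naive follicular B cell markers summed to 271 and the mitochondrial share of the total was 7.49%, and the part of these in the BH3-only values was not tested.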

How the results depend on the processing

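Over 23 alternatives, the log2 differences of Bmf (0.70 to 1.26), Bbc3 (0.86 to 1.14), Bcl2l11 (0.43 to 0.88) and Pmaip1 (0.024 to 0.38) kept their direction, and no member reached an adjusted p of 0.05 in limma (Bbc3 0.199 to 0.890, Bmf 0.185 to 0.991). The estimate of Bid was positive with equal totals (0.088), but there it lay below the median of all genes, 0.13. Its sign also turned with sample quality weights (0.0021) and with stroke mouse 5 and sham control 6 left out together (0.047). The same held for median-of-ratios scaling without stroke mouse 5 (0.027), a setting chosen after seeing the data. Bid ranged from -0.093 to 0.056 when mice were left out singly. Bad ranged from -0.015 (without sham control 6) to 0.28 when mice were left out singly. The cause was not tested. The ratio of BH3-only to survival genes ranged from 0.50 to 0.91 without single mice.

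The number of genes called at an unadjusted p under 0.05 was 770, and it was 1768 with no filter, 417 with equal totals, 1569 with sample quality weights, 1630 with stroke mouse 5 and sham control 6 left out, and 564 to 2095 without single mice, the highest without sham control 6. Higher calls were 72.3% of all calls, 83.5% with equal totals, 56.3% with median-of-ratios scaling, 53.6% with quantile normalization, 50.1% with stroke mouse 5 and sham control 6 left out, and 44.7% without sham control 6, where lower calls were the majority. Equal totals moved the median of all genes to 0.13, and the members are then read relative to it. Of the 15 correlations, 0 to 1 passed when mice were left out singly, the 1 being Bmf with Bcl2l11 without sham control 3 or 5. With a replicate block, 1174 genes were called, the same 3 members were among them, and no other call on a member changed. The within-group deviations of same-numbered mice correlated at a mean r of 0.218, against -0.0414 for other pairs, and at r over 0.1 in 4 of 6 pairs; 4 of the 12 mice correlated best with their own number. No label ties equal numbers to a shared animal, litter or day, and the fit without the block was kept. Depth is unknown, and Bik and Hrk are too low to compare between sham controls and stroke mice.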
